A study of Mus musculus with 6 samples.

Results

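The proteasome genes described here are the 50 genes, of 22899 in each table, whose symbol begins with Psma, Psmb, Psmc, Psmd, Psme, Psmf or Psmg followed by a digit. They were measured in RNA of helper T cells, sorted from the spleen of C57BL/6 mice by flow cytometry as CD4+ T cells. The lean group (3 libraries) came from mice on a normal diet. The obese group (3 libraries) came from mice on a high-fat diet with 60 kcal% fat. Per the labels' protocols, diets generally began at 6 to 8 weeks of age and lasted up to 4 months, and no genetic change is named for either group. The values are FPKM, a level per transcript length and per mapped fragments of each library. The labels do not tie the libraries to separate mice, so p-values measure only the spread between these libraries, which may be technical.

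The proteasome is the protease that degrades proteins marked with ubiquitin. Its core is a barrel of alpha and beta rings, and the beta rings hold the catalytic subunits. The cap at either end recognises, unfolds and feeds in the substrate, with a base of ATPases and a lid that removes ubiquitin. Lymphocytes, and cells exposed to interferon, replace the constitutive catalytic subunits with those of the immunoproteasome, whose products favour presentation by MHC class I. By role the 50 genes were 14 core subunits (7 of the alpha ring, 4 structural and 3 constitutive catalytic beta subunits), 3 immunoproteasome subunits, 17 cap subunits, 5 activators, 7 assembly chaperones, 1 inhibitor and 2 tissue-specific core subunits. The remaining gene, Psmc3ip, matches by symbol only: it encodes a recombination protein and no proteasome subunit. It is nevertheless included in the counts of members and of proteasome genes below. Those counts include the members higher at an unadjusted p and those with groups that did not overlap.

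None of the 48 proteasome genes that could be tested passed the threshold in obese against lean libraries, in either direction (limma, BH-adjusted p under 0.05 required). The lowest BH-adjusted p was 0.0529, for Psme4. Of 17 alternative settings 12 also called no member, and the other 5 called 1 to 6 members, all higher. In each of those 5 the share of members called was below that of all tested genes, from 2.08% against 6.28% without the variance trend to 12.5% against 28.9% with library weights. Of all 10788 tested genes, 5.77% were called higher and 0.519% lower. At an unadjusted limma p under 0.05, 10 members (20.8%) were higher and 0 lower, against 21.9% and 4.01% of all tested genes. Groups that did not overlap were found for 13 members (27.1%) in the higher direction and 3 (6.25%) in the lower, against 25.4% and 6.15% of all tested genes. On the deposited scale the members' shares with non-overlapping groups lay near the background in both directions, as did the unadjusted share that was higher. On that scale the unadjusted lower share and both adjusted shares were 0. The unadjusted lower share was 10.4% of members against 13.6% of all tested genes after median-of-ratios scaling. After correction for transcript GC content it was 10.4% against 15.4%, and with library weights 6.25% against 9.47%. With most other settings the unadjusted higher share of members lay below that of all tested genes. It was 4.17% of members against 11.6% of all tested genes after median-of-ratios scaling. Without the variance trend it was 12.5% against 22.7%, and after correction for transcript GC content 2.08% against 10.3%. The higher share lay above that of all tested genes only in 2 settings. These were scaling without immunoglobulin and haemoglobin genes (39.6% against 33.0%) and no filter beyond a value above 0 (18.8% against 17.7%). The 2 members under the filter of 1 FPKM in at least 3 libraries were Psma8, the testis form of an alpha subunit, and Psmb11, the catalytic subunit of thymic cortical epithelium. They stood between 0.09 and 0.72 FPKM and between 0.26 and 0.61 FPKM.

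On the deposited scale the intervals bound the size of the differences between these libraries, not between mice. All 48 members had a 95% interval of the log2 difference within 1 of 0, and 42 within 0.5 of 0. Over the members the bounds ran from -0.36 to 0.81, with a median half-width of 0.19. In bulk samples such as these, fewer cells of a type and less RNA per cell cannot be told apart. The median log2 difference (obese minus lean, as log2(FPKM + 1)) was 0.05 over the members and 0.10 over all tested genes. Of the 48 members 30 lay above 0 (62.5%), against 70.8% of all tested genes, and 17 lay above the all-gene median. Scaling moved that median: it was -0.03 after median-of-ratios scaling, -0.03 after quantile normalization and 0.20 when immunoglobulin and haemoglobin genes were left out of the scaling. Of the members 12 kept 1 sign in every setting that tested them (all 17, but 16 for Psmc3ip), and the other 36 changed it in at least 1 setting. The 10 above 0 were Psma3, Psmc1, Psmc3ip, Psmc6, Psmd1, Psmd11, Psmd12, Psme2b, Psme3 and Psme4, and the 2 below were Psme1 and Psmg4.

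Proteasome genes were abundant in every library. Of the 50, 31 were in the top 10% of mean level among the 17392 genes above 0 in at least 1 library, and 42 in the top 25%. Together they held 0.633% to 0.668% of the summed FPKM of a lean library and 0.664% to 0.699% of that of an obese one. Levels per length ranged from 5.70 FPKM (Psme4) to 386.2 FPKM (Psme1) among the activators alone, while the 14 core subunits lay between 57.7 FPKM (Psma5) and 232.5 FPKM (Psmb1). The 17 cap subunits were spread over 6.31-fold, from 19.4 FPKM (Psmc6) to 122.2 FPKM (Psmd8), although each occurs once in a cap.

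**Figure D1:**
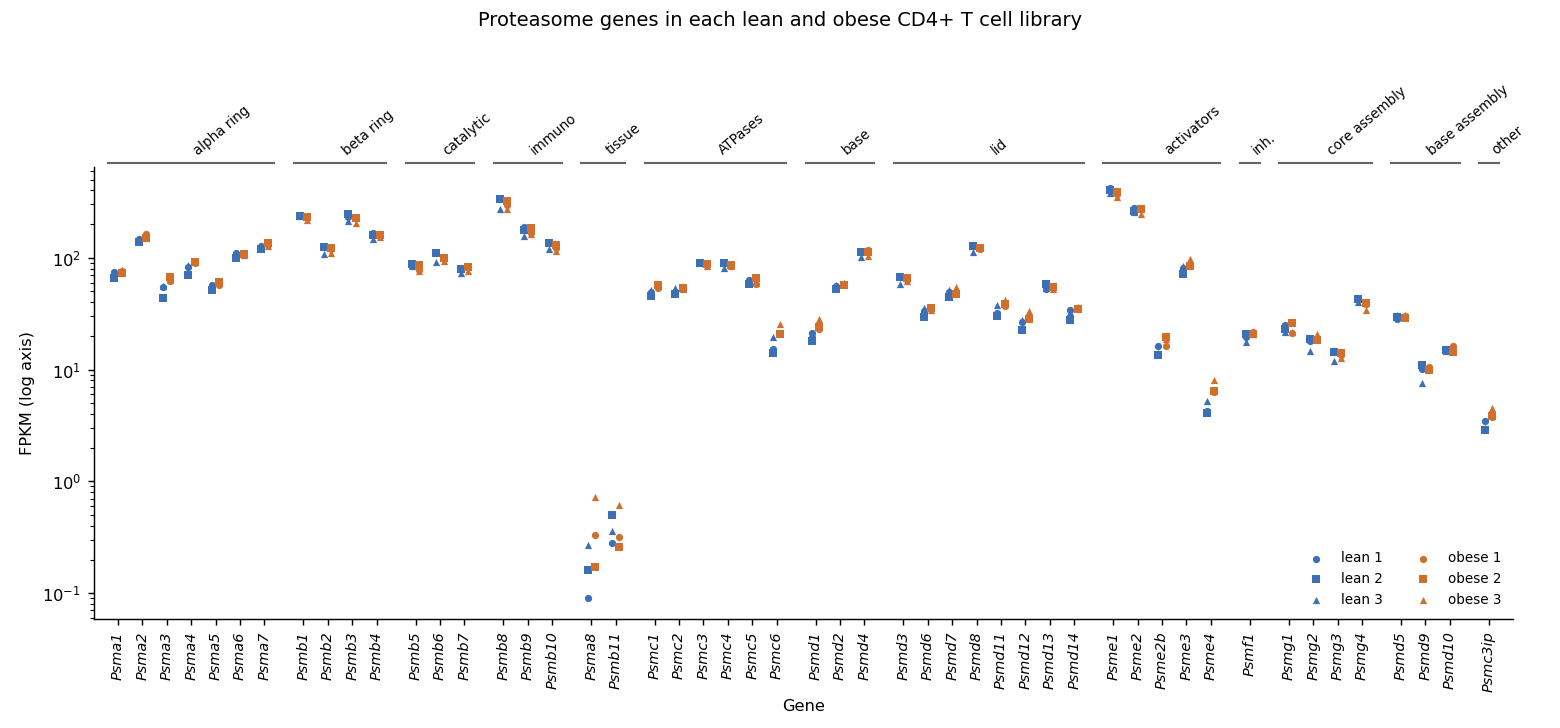
FPKM of the 50 proteasome genes (log axis) in each of the 3 lean and 3 obese libraries, ordered by role; colour gives the group and marker shape the library number. The immunoproteasome and core subunits lie above most cap subunits, Psma8 and Psmb11 lie under 1 FPKM, and for most genes the 2 groups lie close together. Among those further apart are Psma8 (lean and obese means 0.17 and 0.41 FPKM), Psme4 (4.51 and 6.90 FPKM) and Psmc6 (16.25 and 22.48 FPKM).

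Upstream sequences of 4 members are shown as examples. They are a catalytic pair that is exchanged in the immunoproteasome (Psmb5 and Psmb8) and the 2 members with the largest differences (Psme4 and Psmc6). Each sequence is the 250 bases before the start in the RefSeq promoter table (GRCm38.p6), 5′ to 3′ on the gene's strand. Capitals mark letters matching 1 of 4 motifs on either strand: TGACNNNGC (antioxidant response element core), TTCNNNGAA (gamma-activated sequence, which reads alike on both strands), GAAA and GAAA set apart by any 2 bases (interferon-stimulated response element core) and CCGGAAG (ETS site).
Psmb5, chr14:54617996-54618245, minus strand: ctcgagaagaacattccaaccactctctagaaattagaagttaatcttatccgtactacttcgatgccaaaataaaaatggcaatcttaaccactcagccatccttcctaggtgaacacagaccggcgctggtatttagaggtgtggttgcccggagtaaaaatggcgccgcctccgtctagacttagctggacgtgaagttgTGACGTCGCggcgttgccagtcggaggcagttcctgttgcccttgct
Psmb8, chr17:34197945-34198194, plus strand: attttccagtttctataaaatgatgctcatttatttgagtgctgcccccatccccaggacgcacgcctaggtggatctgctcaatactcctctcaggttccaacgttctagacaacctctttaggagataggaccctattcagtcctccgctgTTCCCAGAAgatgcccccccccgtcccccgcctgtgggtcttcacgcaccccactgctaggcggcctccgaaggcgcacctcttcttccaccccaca
Psme4, chr11:30771525-30771774, plus strand: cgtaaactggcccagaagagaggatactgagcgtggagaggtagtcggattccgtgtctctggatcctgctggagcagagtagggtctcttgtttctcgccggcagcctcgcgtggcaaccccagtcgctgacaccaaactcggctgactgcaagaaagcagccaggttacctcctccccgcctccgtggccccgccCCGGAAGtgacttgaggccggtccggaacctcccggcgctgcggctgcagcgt
Psmc6, chr14:45329574-45329823, plus strand: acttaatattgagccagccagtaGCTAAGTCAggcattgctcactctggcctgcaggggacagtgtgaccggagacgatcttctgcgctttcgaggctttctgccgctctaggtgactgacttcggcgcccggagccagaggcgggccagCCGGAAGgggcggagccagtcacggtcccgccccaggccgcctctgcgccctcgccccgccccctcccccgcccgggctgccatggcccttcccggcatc
Psmb5 held the antioxidant element letters 47 to 39 bases before its start. Psmb8 held the gamma-activated letters 97 to 89 bases before its start. Psme4 and Psmc6 each held an ETS match, and Psmc6 also held antioxidant element letters near the far end of its window.

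Of the 50 members 42 had an entry in the promoter table; Psma8, Psmb1, Psmb2, Psmb7, Psmc3, Psmd3, Psmd7 and Psmg2 had none. In all, 8 motifs were searched, and the 4 in capitals were chosen after the shares were seen. The ETS letters CCGGAAG were found in 13 members (31.0%; Psma6, Psmc1, Psmc2, Psmc3ip, Psmc6, Psmd2, Psmd4, Psmd6, Psmd11, Psmd12, Psme3, Psme4 and Psmg1). Among genes with a window, the share was 17.0% of the 8761 tested ones and 7.83% of all 27025. Another ETS form, GGAAGTG, was found in 5 members (11.9%), against 14.3% of tested genes. The antioxidant element core was found in 5 members (11.9%; Psmb5, Psmb6, Psmc6, Psmd9 and Psmd12), against 14.0% of tested genes. The interferon-stimulated core was in 3 (7.14%; Psmb3, Psmd4 and Psmd9) against 3.50%, and the gamma-activated sequence in 2 (4.76%; Psmb8 and Psmg1) against 7.42%. CCAAT was in 15 (35.7%) against 40.9%, GGGCGG in 22 (52.4%) against 63.3%, and TGAGTCA in 1 (2.38%) against 3.75%. A match describes letters in a window and is not evidence of a bound factor.

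The immunoproteasome subunits stood above their constitutive counterparts in every library. Psmb8, the chymotrypsin-like subunit that replaces Psmb5, had 344.7, 332.9 and 273.5 FPKM in the lean libraries and 299.6, 324.6 and 273.4 FPKM in the obese ones. Psmb5 had 83.9, 87.6 and 84.6 FPKM in lean and 77.6, 86.7 and 76.2 FPKM in obese libraries. For both genes the groups overlapped, and the log2 differences were -0.08 (95% interval -0.32 to 0.16) and -0.09 (-0.26 to 0.08).

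Psmb9, which replaces Psmb6, had 188.5, 177.2 and 155.4 FPKM in lean and 167.7, 184.2 and 163.1 FPKM in obese libraries, a log2 difference of -0.01 (-0.22 to 0.19). Psmb6 had 110.2, 109.9 and 92.2 FPKM in lean and 102.0, 98.6 and 93.5 FPKM in obese libraries (-0.08, interval -0.28 to 0.12). The lean values of both were lowest in lean 3, and the groups overlapped. Psmb10, which replaces Psmb7, had 134.8, 134.2 and 119.2 FPKM in lean and 122.0, 131.1 and 114.4 FPKM in obese libraries (-0.08, interval -0.27 to 0.11). Psmb7 had 80.9, 78.7 and 73.5 FPKM in lean and 82.0, 82.5 and 76.95 FPKM in obese libraries (0.05, interval -0.11 to 0.21). The 3 immunoproteasome subunits each had their 2 lowest values in lean 3 and obese 3. None of these 6 genes passed the limma test, with BH-adjusted p of 0.462 to 0.936. Each of their signs changed in at least 1 setting.

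The ratio of an immunoproteasome subunit to the one it replaces does not change when a library is scaled by 1 factor. Quantile normalization and the correction for GC, which are not of that kind, can change it. Psmb8/Psmb5 was 3.71 ± 0.44 in lean and 3.73 ± 0.14 in obese libraries (SD, n = 3 each; exact 2-sided permutation p = 0.9, adjusted over the 3 ratios 0.9). Its log2 difference was 0.01 (95% interval -0.28 to 0.31), and it turned to -0.08 without lean 3, to -0.01 without obese 1 and to -0.09 with library weights. Psmb9/Psmb6 was 1.67 ± 0.05 in lean and 1.75 ± 0.11 in obese libraries (exact permutation p = 0.4, adjusted 0.6), a log2 difference of 0.07 (-0.10 to 0.23). That difference was 0.02 without obese 2, 0.04 without lean 2, 0.11 without obese 1 and 0.11 after quantile normalization. Psmb10/Psmb7 was 1.67, 1.71 and 1.62 in the lean libraries and 1.49, 1.59 and 1.49 in the obese ones. The groups of this ratio did not overlap, and the log2 difference was -0.13 (-0.24 to -0.02). Its exact permutation p of 0.1 is the smallest that 3 against 3 libraries can give, and it was 0.3 after adjustment over the 3 ratios. The difference was -0.09 after quantile normalization and -0.05 after correction for GC (Psmb10 has 56.5% GC and Psmb7 48.7%). The intervals assume normally distributed log2 ratios, which the exact test does not.

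**Figure D2:**
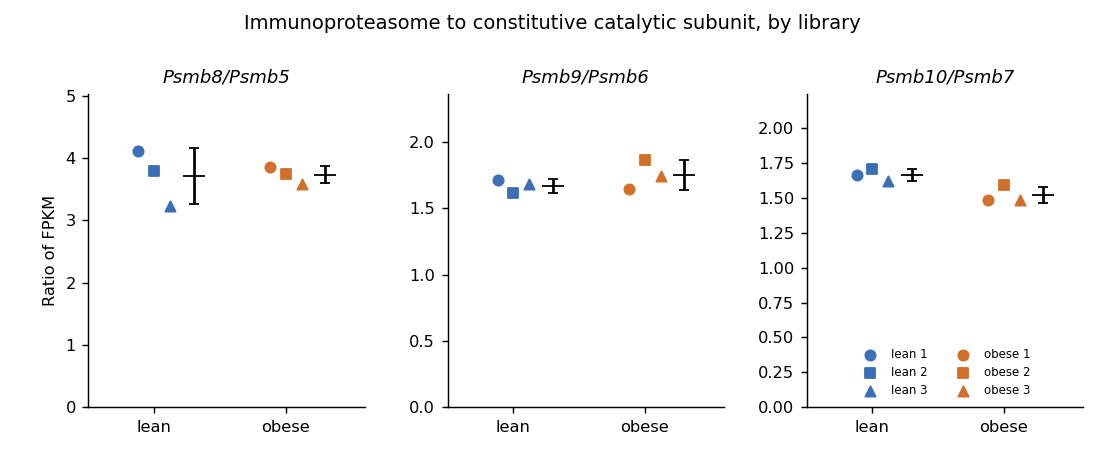
Ratio of FPKM of each immunoproteasome subunit to the constitutive subunit it replaces, from 0, in the 3 lean and 3 obese libraries; black marks give the group mean and SD. Psmb8/Psmb5 lies between 3.23 and 4.11 in all 6 libraries, and the Psmb10/Psmb7 values of the groups do not overlap.

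The core subunits as a class had a median log2 difference of 0.05, and 9 of 14 lay above 0. All 7 alpha subunits were above 0 (median 0.11), as were 70.8% of all tested genes (median 0.10). Of the 7, 4 lay above the all-gene median. Below 0 were 3 of 4 structural beta subunits (median -0.05) and 2 of 3 constitutive catalytic ones (median -0.08). Median GC was 45.0% for the alpha, 51.6% for the structural beta and 55.8% for the catalytic subunits. The alpha subunits were not above 0 on every scale: 5 of the 7 lay below 0 after median-of-ratios scaling and 6 after correction for GC. Psma3 was the alpha subunit with the largest difference. It had 54.6, 44.1 and 55.7 FPKM in lean and 62.1, 67.6 and 63.7 FPKM in obese libraries (log2 difference 0.33 ± 0.10 SE; limma, BH-adjusted p = 0.0877), with every obese value above every lean one. Psma6 had the lowest, with 110.4, 99.2 and 101.5 FPKM in lean and 107.2, 108.4 and 105.8 FPKM in obese libraries (0.05).

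Among the structural beta subunits Psmb1 had 240.1, 238.6 and 235.2 FPKM in lean and 231.5, 230.4 and 219.1 FPKM in obese libraries. These groups did not overlap, yet the log2 difference was only -0.07 (-0.22 to 0.08; limma, BH-adjusted p = 0.530). Psmb4 had 165.2, 161.3 and 148.6 FPKM in lean and 162.5, 160.7 and 153.1 FPKM in obese libraries, a difference of 0.00. The 2 rings are made in equal numbers in a core particle, but FPKM here ranged over 4.03-fold across the 14 core genes.

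The cap subunits had a median log2 difference of 0.06, with 12 of 17 above 0. Psmc6, an ATPase of the base, had the largest difference: 15.3, 13.9 and 19.5 FPKM in lean and 21.1, 20.9 and 25.4 FPKM in obese libraries. Every obese value lay above every lean one, and the log2 difference was 0.45 ± 0.13 (SE; limma, BH-adjusted p = 0.0799). It passed without lean 3 (BH-adjusted p = 0.0319), and the BH-adjusted p over the 6 leave-one-out fits ran up to 0.229. Over all 17 alternatives it ran from 0.00401 to 0.268. Psmc3, another ATPase, had the lowest difference of the 6: 89.6, 90.02 and 89.3 FPKM in lean and 86.5, 88.8 and 84.4 FPKM in obese libraries (-0.05, interval -0.19 to 0.09). The 6 ATPases form 1 ring, so these genes encode partners of 1 complex whose levels per length ran from 19.4 to 88.1 FPKM.

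Psmd1, a scaffold of the base, had 21.0, 17.9 and 21.4 FPKM in lean and 23.0, 24.1 and 28.1 FPKM in obese libraries (0.30 ± 0.10 SE; limma, BH-adjusted p = 0.121). Psmd4, a ubiquitin receptor of the base, had 113.1, 111.6 and 102.1 FPKM in lean and 117.8, 112.9 and 102.8 FPKM in obese libraries (0.03). Of the lid, Psmd12 had the largest difference, with 26.8, 22.5 and 27.8 FPKM in lean and 30.0, 28.2 and 33.5 FPKM in obese libraries (0.25 ± 0.10 SE; BH-adjusted p = 0.181), and the groups did not overlap. Psmd13 had the lowest, with 52.4, 58.1 and 53.9 FPKM in lean and 55.0, 54.2 and 52.8 FPKM in obese libraries (-0.02). Psmd14, the lid enzyme that removes ubiquitin chains, had a difference of 0.16 (interval -0.05 to 0.37), with groups that did not overlap.

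Of the 5 activators, Psme1 and Psme2, the interferon-inducible PA28 alpha and beta chains, were the most abundant. Psme1 had 421.4, 404.9 and 378.9 FPKM in lean and 374.0, 387.5 and 350.4 FPKM in obese libraries (-0.12, interval -0.29 to 0.06; limma, BH-adjusted p = 0.364). Psme2 had 279.0, 262.5 and 257.9 FPKM in lean and 276.1, 274.5 and 244.6 FPKM in obese libraries (-0.01). In both the groups overlapped. Psme3, the nuclear PA28 gamma chain, had 81.3, 72.0 and 83.9 FPKM in lean and 84.1, 84.7 and 96.8 FPKM in obese libraries (0.16, interval -0.04 to 0.36).

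Psme4 encodes PA200, an activator that caps the core in the nucleus. It had 4.24, 4.09 and 5.20 FPKM in lean and 6.25, 6.39 and 8.05 FPKM in obese libraries. Every obese value lay above every lean one, with means of 4.51 and 6.90 FPKM. The log2 difference was 0.52 ± 0.13 (SE; 95% interval 0.22 to 0.81; limma, BH-adjusted p = 0.0529), and it passed without lean 3 (BH-adjusted p = 0.0437). Over the 17 alternatives that p ran from 0.00312 to 0.163. Psme2b, a close relative of Psme2 whose reads may be divided between the 2 loci, had 16.1, 13.4 and 14.1 FPKM in lean and 16.2, 19.6 and 18.97 FPKM in obese libraries (0.31 ± 0.11 SE; BH-adjusted p = 0.114), so its value is uncertain.

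**Figure D3:**
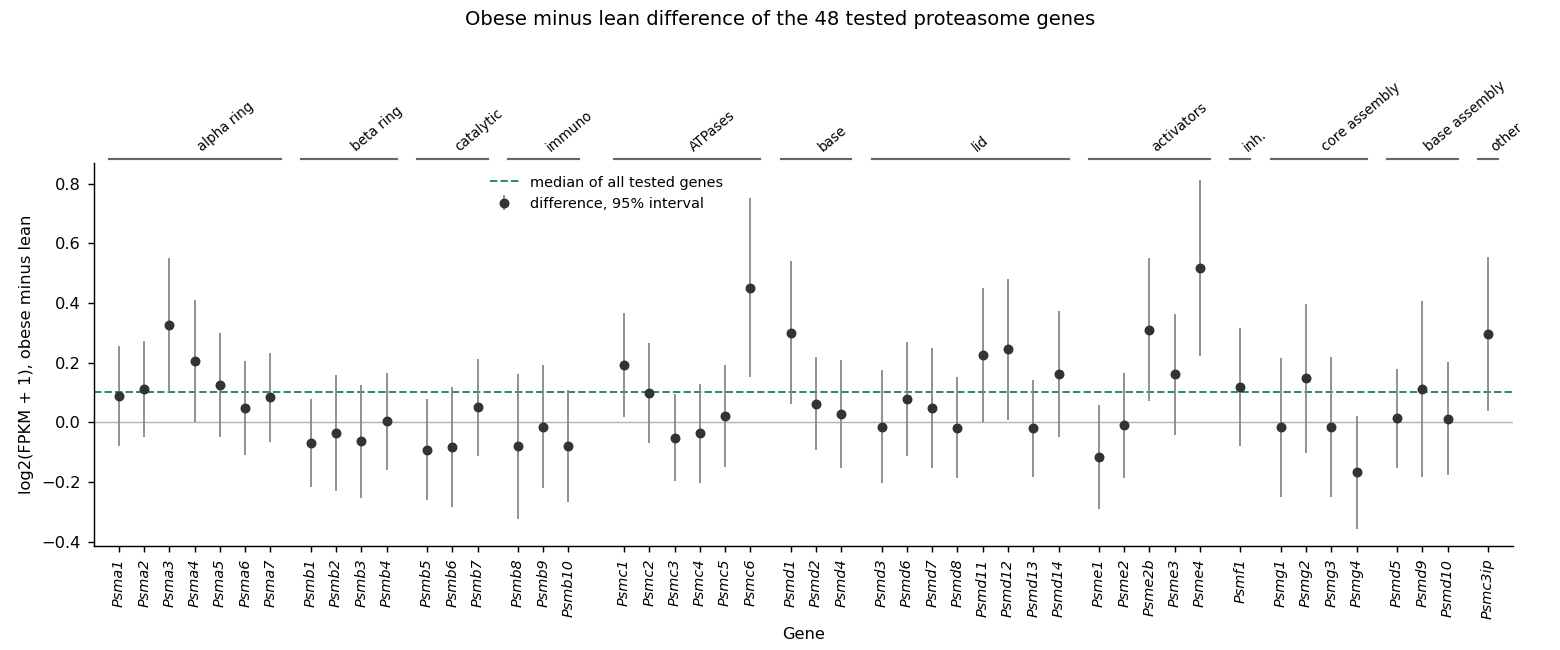
Obese minus lean difference in log2(FPKM + 1) with its 95% interval for each of the 48 tested proteasome genes, by role; the dashed line is the median of all 10788 tested genes (0.10). Psme4 (0.52) and Psmc6 (0.45) lie highest and Psmg4 (-0.17) lowest.

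Assembly chaperones guide the rings and the base together. Psmg4, which pairs with Psmg3, had the lowest difference of all members, with 43.5, 42.8 and 39.96 FPKM in lean and 38.4, 39.8 and 34.2 FPKM in obese libraries (-0.17 ± 0.08 SE; limma, BH-adjusted p = 0.240). Every obese value lay below every lean one. Psmg2, which pairs with Psmg1 on the alpha ring, had 18.2, 18.97 and 14.8 FPKM in lean and 18.5, 18.3 and 20.8 FPKM in obese libraries (0.15). Of the base chaperones Psmd9 had 10.04, 11.02 and 7.61 FPKM in lean and 10.6, 9.93 and 10.4 FPKM in obese libraries (0.11), and Psmd10 had 15.3, 14.8 and 14.7 FPKM in lean and 16.1, 14.5 and 14.7 FPKM in obese libraries (0.01). Psmf1, the PI31 inhibitor, had 19.4, 20.9 and 17.6 FPKM in lean and 21.7, 20.7 and 20.7 FPKM in obese libraries (0.12). Psmc3ip, which is no proteasome gene, had 3.48, 2.90 and 3.02 FPKM in lean and 3.80, 3.88 and 4.56 FPKM in obese libraries (0.30; BH-adjusted p = 0.148).

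By class, the median log2 difference relative to that of all tested genes was -0.05 for the core, -0.04 for the cap, -0.18 for the immunoproteasome, 0.06 for the activators and -0.09 for the assembly chaperones. After quantile normalization it was 0.08 for the core, 0.05 for the cap, -0.03 for the immunoproteasome and 0.18 for the activators. Core and cap thus changed side after quantile normalization. In the other settings the core stayed below the all-gene median, at -0.07 after median-of-ratios scaling. The cap did so too (-0.06 after that scaling), except with no filter beyond a value above 0 (0.0098). Single libraries moved these medians as well. Without obese 3 they were -0.03 (core), -0.0048 (cap), -0.10 (immunoproteasome), 0.0080 (activators) and -0.06 (assembly). Without lean 3 they were -0.09 (core), -0.03 (cap), -0.25 (immunoproteasome), 0.09 (activators) and -0.14 (assembly). The activators had 0.01 without lean 2, and the core had -0.03 without lean 1. No test of a difference between classes was run.

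The lowest and highest values of the members were spread unevenly over the libraries. The same counts were not made over all tested genes, so whether this is particular to proteasome genes is unknown. Lean 2 gave the lowest value of the 6 for 22 of 48 members, among them 7 of 7 alpha ring subunits and 11 cap subunits. Lean 3 was lowest for 13 and obese 3 for 9, while obese 3 was highest for 16 and lean 1 for 14.

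Within the members, differences went with the base composition of the transcript. Across the 48 members Spearman's rho between the log2 difference and the GC content of the longest protein-coding transcript (GENCODE M21) was -0.74, against -0.37 across 10689 tested genes. This relation was looked for after the differences had been seen, and with the longest transcript of any type it was -0.69 over the members. The genes share the 6 libraries and are not independent, so it is a description. The median difference of all tested genes was 0.26 in the lowest 10% of genes by GC and 0.00 in the highest 10%. The 24 members below the members' median GC had a median difference of 0.14, and 15 of them lay above the all-gene median. The 24 at or above it had -0.02, and 2 lay above. Psmc6 (37.0% GC) and Psme4 (43.9%) belong to the first set, and the immunoproteasome subunits (55.3% to 56.5%) to the second. Level went with the difference too (rho -0.58 over members, -0.38 over all tested genes), as did length (0.44 and 0.23), and GC with level (0.41 over members). After correction of the log2 values for GC, Psme4 had 0.29 (limma, BH-adjusted p = 0.0818) and Psmc6 0.14. The part of GC, length, level or library preparation in the differences was not tested.

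**Figure D4:**
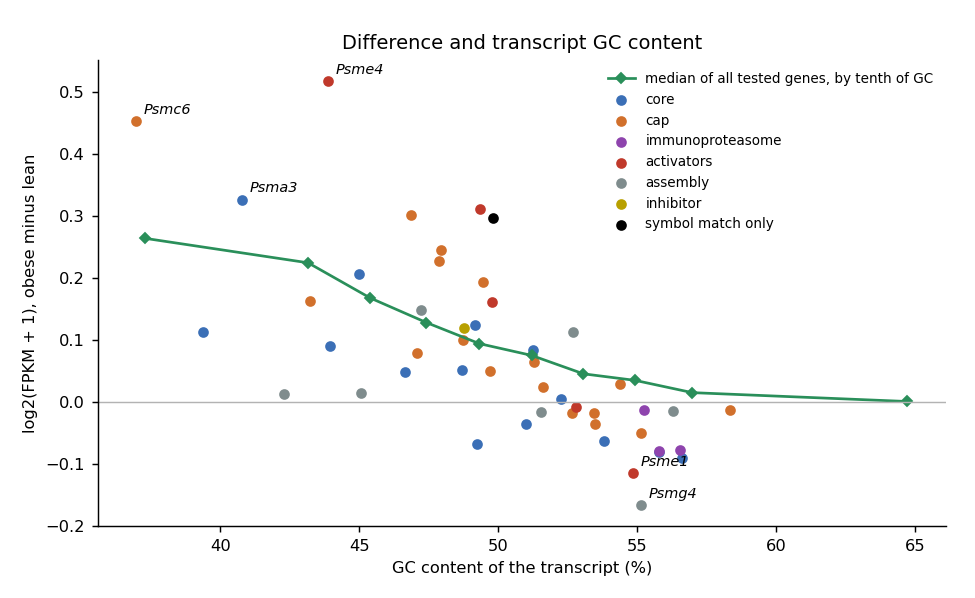
Obese minus lean difference in log2(FPKM + 1) against transcript GC content (percent) for the 48 tested proteasome genes, coloured by role. The green line is the median of all tested genes in each of 10 GC bins with nearly equal numbers of genes. Members of low GC lie higher, as the line does, from Psmc6 at 37.0% GC to the immunoproteasome subunits at 55.3% to 56.5%.

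The partners of the proteasome were also measured. Of 26 tested genes of ubiquitin and of shuttle and processing factors, 0 were called (limma, BH-adjusted p), with 3 higher (11.5%) and 3 lower (11.5%) at an unadjusted p under 0.05, against 21.9% and 4.01% of all tested genes. Pomp, the chaperone of core assembly, had a log2 difference of -0.04, and Nfe2l1, which activates proteasome genes when the protease is impaired, 0.07. Of 15 genes of class I presentation and its interferon regulators 0 were called, with 4 higher (26.7%) and 1 lower (6.67%) at an unadjusted p under 0.05, against the same 21.9% and 4.01%. Irf1, which drives immunoproteasome genes, had a log2 difference of -0.25 (limma, BH-adjusted p = 0.0615), and its groups did not overlap. Tap1, which neighbours Psmb8 and Psmb9 in the MHC region, had 0.06.

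The libraries carried markers of other cells that moved with the groups. The 9 erythroid markers found, all called higher, summed to 11.5 to 13.2 FPKM in lean and 76.4 to 420.5 FPKM in obese libraries. The 14 macrophage markers, all called higher, summed to 425.5 to 450.2 FPKM in lean and 1069 to 1333 FPKM in obese ones. Of 10 neutrophil markers 6 were called lower (543.1 to 781.8 against 151.4 to 409.4 FPKM), of 8 NK cell markers 3 were lower (287.0 to 374.9 against 210.1 to 288.4 FPKM), and of 7 plasma cell markers 1 was higher (551.9 to 647.9 against 856.7 to 1532 FPKM). Of 10 B cell, 9 T cell and 2 CD8 T cell markers 0 were called. T cell markers summed to 2865 to 3182 FPKM in lean and 2506 to 3059 FPKM in obese libraries, and none of the marker genes was at 0 in any library. The part of other cells in the proteasome values was not tested.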

How the data were processed

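Libraries were run on a HiSeq instrument, per the labels' protocols. The authors deposited 1 table per library of FPKM values with 2 decimals. Tools were Bowtie and RSEM and builds GRCm38 and mm10, per the submitters' processing notes, which give no versions. The sources used here do not give strandedness, filters or the annotation release. FPKM is relative to a library's mapped fragments, so a few abundant transcripts can lower all others. No whole-read steps were found (step score at most 0.386, against at least 0.548 for simulated whole reads), so depth is unknown and precision rests on the spread between libraries.

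Values were taken to log2(FPKM + 1). For the 10788 genes of at least 1 FPKM in at least 3 libraries, limma 3.58.1 was run under R 4.3.3 (trend, 2-sided, Benjamini-Hochberg over all of them; called under 0.05). The added 1 shrinks the differences of low genes. The limma test was also run on 10 simulated data sets of 10788 genes. In each, 200 genes of any level were changed up or down. It recovered 28.6% of genes changed by 0.5 (log2), 90.4% at 1 and 98.6% at 2, and 5.6% of calls were false. These rates hold for that number of changed genes and for genes of all levels, not for the members in particular. The 3 subunit ratios had exact permutation tests. GC came from GENCODE M21, positions and promoters from RefSeq GRCm38.p6. The members and lists were chosen with earlier results of these data known. Genes with values per library were the immunoproteasome subunits and their counterparts, the activators, and each class's highest and lowest difference. Alternatives were another pseudocount, filters, scalings, variance models, library weights, the replicate block and each library left out; correction for GC was added after seeing the data. Some genes of the partner lists are counted but not reported by name here.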

Additional observations from a re-analysis of the deposited data

How the results depend on the processing

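Over 17 alternatives, 12 called no member and none called a member lower. Members called higher numbered 2 with scaling without immunoglobulin and haemoglobin genes (Psma3, Psme4; 4.17% of members against 9.13% of all tested genes), 1 without the trend (Psme4; 2.08% against 6.28%), 6 with library weights (Psma3, Psmc1, Psmc6, Psmd1, Psmd11, Psme4; 12.5% against 28.9%), 2 with the replicate block (Psmc6, Psme4; 4.17% against 9.41%) and 0 to 2 with 1 library left out, the 2 being Psmc6 and Psme4 without lean 3 (4.17% against 6.47%). Same-numbered libraries had correlations of their deviations of 0.032, 0.061 and 0.193, and differently numbered ones had -0.17 to 0.16. With 3 libraries a group these values cannot decide whether equal numbers pair libraries, so pairing is unknown. Signs changed for 0 to 19 of the members, the most (19) after correction for GC, with 17 after median-of-ratios scaling. All genes called higher and lower numbered 344 and 24 with no filter, 293 and 35 with a mean of at least 5 FPKM, 322 and 112 after quantile normalization and 2507 and 609 with library weights. Those called higher numbered 940 with scaling without immunoglobulin and haemoglobin genes. Those called lower numbered 173 after median-of-ratios scaling, 149 with the replicate block and 288 after correction for GC. With 1 library left out they were 299 to 601 higher and 19 to 97 lower. Relative to all genes, the cap median was 0.00977 with no filter, and after quantile normalization the medians were 0.0775 (core), 0.0511 (cap), -0.0331 (immunoproteasome) and 0.183 (activators). The log2 difference of Psmb8/Psmb5 was -0.0842 without lean 3 and -0.0127 without obese 1, and ran from -0.0842 to 0.0881 over the libraries left out. The cause of these changes was not tested. Depth is unknown, and 3 libraries a group limit the test.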
